A study of Mus musculus with 6 samples.

Results

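The 10 genes described here set the pace of G1 in hematopoietic stem cells (HSCs): the CDK inhibitors Cdkn1a, Cdkn1b and Cdkn2c, the D-type cyclins Ccnd1, Ccnd2 and Ccnd3, the kinases Cdk4 and Cdk6, and the pocket proteins Rb1 and Rbl2. They were chosen by name, and all 10 were found among the 27198 genes of the deposited expression table. Their RNA was measured in HSCs sorted from bone marrow of wild-type male C57BL/6 mice, 8 to 10 weeks old and not irradiated. The control (Ctrl) mice received the solvent, and the long-term (l-FA) mice received ferulic acid, a plant phenolic acid, by intraperitoneal injection at 50 mg/kg every day for 30 days. HSCs were gated as Lineage- c-Kit+ Sca1+ CD34- CD135- cells. Each group comprised 3 libraries, and how many mice went into a library is not stated, so the error below is the spread between libraries, which may be technical.

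In G1, D-type cyclins bind and activate CDK4 and CDK6, which phosphorylate the pocket proteins and so release E2F transcription factors that switch on S phase genes. INK4 inhibitors such as the product of Cdkn2c block CDK4 and CDK6 directly, and CIP/KIP inhibitors such as the products of Cdkn1a and Cdkn1b chiefly restrain the cyclin E and A kinases that act next. Most adult HSCs rest in G0, and members of these families are known to hold HSCs there or to let them leave. The question asked of the data was whether the transcript levels of these genes lay on the side of quiescence or of cycle entry after l-FA.

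Rbl2 and Cdkn2c rose after l-FA, and Ccnd2, Cdk4, Cdk6 and Rb1 fell, whereas Cdkn1a, Cdkn1b, Ccnd1 and Ccnd3 did not pass the test. Thus 6 of the 10 genes passed at an adjusted p under 0.05 in edgeR's quasi-likelihood test with Benjamini-Hochberg adjustment over the 16520 genes tested, where 50.5% of all genes tested did. By direction, 2 of 10 were higher against 25.5% of all genes, and 4 of 10 were lower against 25.0%. None of the 10 changed more than 2-fold, whereas 11.8% of all genes passed with a fold change above 2. The 3 Ctrl and 3 l-FA libraries did not overlap for 7 of the 10 genes, against 60.3% of all genes. The shares of genes passed and of groups apart were therefore near the background, and their size was below it. The median log2 fold change of the 10 was -0.07, beside 0.003 over all genes tested. Against a 1.2-fold limit instead of no change, Rbl2 alone passed among the 10 (adjusted p = 0.000616, edgeR). Of all 16520 genes tested, 4516 passed that limit.

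Depth differed little between groups, with total counts of 19287735 to 20380610 in Ctrl and 19505689 to 20376031 in l-FA. TMM factors, which correct the totals for composition, ran from 0.9685 to 0.9787 in Ctrl and from 1.025 to 1.032 in l-FA, a gap that matters for changes as small as that of Cdk6 below. With total counts alone, 61.6% of the genes passed were higher in l-FA, against 50.4% with TMM, and the median of all genes was 0.08 on the log2 scale. Levels are given as TMM-normalized CPM (the count as a share of the corrected library total), mean ± SD over 3 libraries, and differences as log2 fold changes of l-FA against Ctrl. The 10 genes held between 93 and 11813 counts in a library.

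The upstream sequence of 3 of the 6 genes that passed is shown first, each with 1 kind of short motif known from cell cycle promoters. Cdk6 also passed and its window holds an E-box, but its sequence is not shown. RefSeq (GRCm38.p6) gave a window of 250 bases before to 50 bases after a start site for 7 of the 10 genes, 10 windows in all. Ccnd1, Ccnd2 and Rb1 had no window in the table used here. Both strands were searched for the CHR, an element of late cell cycle genes (TTTGAA or also TTCGAA), for an E2F core (TTCGCGC or also TTGGCGC or also TTCCCGC or also TTGCCGC) and for the E-box CACGTG, which MYC family proteins bind. At least 1 match was present in 19.2%, 9.57% and 7.15% of the 32851 windows of all genes, in that order. The GC box GGGCGG was also searched, was present in 35.7% of these windows, and is not marked below. In the windows of Rbl2 (chr8:91069807-91070106, plus strand), Cdkn2c (chr4:109666707-109667006, minus strand) and Cdk4 (chr10:127063285-127063584, plus strand), capitals mark the CHR match, the E2F core and the E-boxes, respectively, each written 5′ to 3′ along the gene.
Rbl2: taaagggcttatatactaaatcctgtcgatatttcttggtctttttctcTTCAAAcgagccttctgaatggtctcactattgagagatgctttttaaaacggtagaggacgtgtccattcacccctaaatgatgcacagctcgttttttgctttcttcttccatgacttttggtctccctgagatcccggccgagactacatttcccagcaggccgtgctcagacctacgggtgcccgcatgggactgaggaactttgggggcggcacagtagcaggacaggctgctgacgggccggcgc
Cdkn2c: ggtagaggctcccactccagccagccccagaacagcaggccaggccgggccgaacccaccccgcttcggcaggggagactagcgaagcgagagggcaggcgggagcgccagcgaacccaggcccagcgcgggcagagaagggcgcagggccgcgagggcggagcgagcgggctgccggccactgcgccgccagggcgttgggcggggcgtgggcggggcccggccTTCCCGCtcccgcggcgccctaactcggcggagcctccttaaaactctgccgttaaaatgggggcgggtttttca
Cdk4: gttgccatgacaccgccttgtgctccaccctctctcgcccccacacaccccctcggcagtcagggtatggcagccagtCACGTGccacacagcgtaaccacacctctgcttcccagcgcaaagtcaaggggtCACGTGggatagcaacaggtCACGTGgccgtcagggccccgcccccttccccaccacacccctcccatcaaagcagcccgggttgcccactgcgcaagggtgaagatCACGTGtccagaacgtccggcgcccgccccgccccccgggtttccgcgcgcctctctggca
The CHR match of Rbl2 lies on the opposite strand and so reads TTCAAA here. Cdk4 held 4 E-boxes, a number reached by 0.0244% of all windows. No E2F core or CHR was found in the Cdk4 window. Cdk6 and the second Cdkn2c window held 1 E-box each, and the windows of Cdkn1a, Cdkn1b and Ccnd3 held no CHR, E2F core or E-box. A match is a description of these letters, and whether a factor bound there was not measured.

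**Figure D1:**
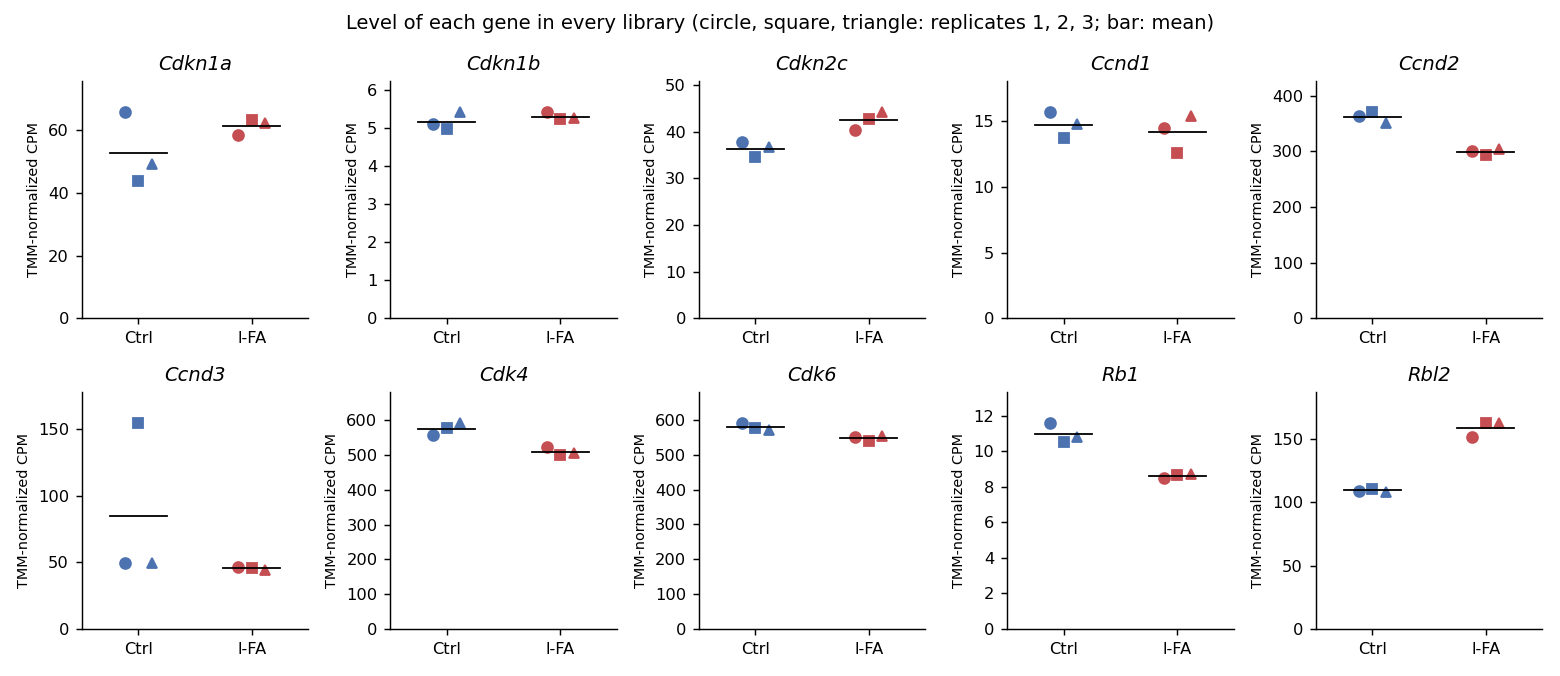
Level of each of the 10 genes (TMM-normalized CPM, axis from 0) in every library, with 3 Ctrl libraries in blue and 3 l-FA libraries in red; bars are means. Rbl2 sits at 108.2 to 110.8 CPM in Ctrl and 151.5 to 162.8 in l-FA, and 1 Ctrl library of Ccnd3 stands at 154.7 CPM, far from the other 5.

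Among the inhibitors, Cdkn2c rose, and the estimates of Cdkn1a and Cdkn1b lay above 0 with intervals that reach below it. Cdkn2c (ENSMUSG00000028551, chromosome 4, 109518073 to 109524386 on GRCm39, the build of all loci below) encodes p18, an INK4 inhibitor known to limit HSC self-renewal. It measured 37.7, 34.6 and 36.7 CPM in the Ctrl libraries and 40.4, 42.7 and 44.2 CPM in the l-FA libraries. Every l-FA library stood above every Ctrl library. The mean went from 36.3 ± 1.61 to 42.5 ± 1.91 CPM, 1.17-fold (log2 fold change 0.22, standard error 0.057, adjusted p = 0.0159, edgeR). Leaving out each library in turn kept the adjusted p of Cdkn2c between 0.0158 and 0.0465.

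Cdkn1a (ENSMUSG00000023067, chromosome 17, 29309950 to 29319701) encodes p21, the inhibitor that p53 induces. Its level was 65.9, 43.7 and 49.2 CPM in Ctrl and 58.5, 63.4 and 62.4 CPM in l-FA. Ctrl replicate 1 lay above all 3 l-FA libraries and the other Ctrl libraries lay below them, so the groups overlapped. The mean was 52.9 ± 11.6 CPM in Ctrl and 61.4 ± 2.58 in l-FA, a log2 fold change of 0.21 with a 95% interval from -0.13 to 0.56 (adjusted p = 0.265, edgeR). Without Ctrl replicate 1 it was 0.40 and passed (adjusted p = 0.0064), so this 1 library decides the call. Trp53, which encodes p53, had a log2 fold change of -0.08 (adjusted p = 0.0331, edgeR), the size of the shift of 0.08 between scalings.

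Cdkn1b (ENSMUSG00000003031, chromosome 6, 134897364 to 134902476), which encodes p27, had the lowest counts of the 10, 93 to 108 in Ctrl and 105 to 114 in l-FA. The corresponding levels were 5.11, 4.98 and 5.42 CPM in Ctrl and 5.43, 5.24 and 5.26 CPM in l-FA, and the groups overlapped. The log2 fold change of 0.04 had an interval from -0.18 to 0.26 (adjusted p = 0.807, edgeR), which leaves out a change of the size of Rbl2. Per length, Cdkn1b stood at 0.663 ± 0.0324 FPKM in Ctrl, beside 7.79 ± 1.70 FPKM for Cdkn1a.

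Cdkn1c, which encodes p57, the CIP/KIP inhibitor most tied to HSC quiescence, belongs to the same family but not to the 10 genes. It had 138, 142 and 151 counts in Ctrl and 245, 226 and 228 in l-FA, with no overlap. Its mean rose from 7.46 ± 0.234 to 11.5 ± 0.202 CPM (log2 fold change 0.62, adjusted p = 0.000692, edgeR), beside 0.22 for Cdkn2c. Of 3 further genes with a Cdkn name that were tested, Cdkn1c was higher and Cdkn2d and Cdkn3 did not pass, while Cdkn2b had too few counts to test.

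Of the D-type cyclins, Ccnd2 fell, and neither Ccnd1 nor Ccnd3 passed. Ccnd2 (ENSMUSG00000000184, chromosome 6, 127102125 to 127129156) encodes cyclin D2, which mitogens and cytokines induce. It measured 363.7, 371.1 and 352 CPM in Ctrl and 301.4, 294.3 and 303.6 CPM in l-FA. All l-FA libraries lay well below all Ctrl libraries. The mean fell from 362.2 ± 9.65 to 299.8 ± 4.84 CPM, 1.21-fold (log2 fold change -0.27, standard error 0.027, adjusted p = 0.000348, edgeR).

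Ccnd3 (ENSMUSG00000034165, chromosome 17, 47815976 to 47910616), which encodes cyclin D3, measured 49.7, 154.7 and 49.6 CPM in Ctrl and 46.8, 45.6 and 44.0 CPM in l-FA. Every l-FA library was below every Ctrl library, but Ctrl replicate 2 stood about 3 times above the other 2. The log2 fold change was -0.90 with an interval from -1.98 to 0.19 (adjusted p = 0.145, edgeR), the largest estimate of the 10 and one that did not pass. Without Ctrl replicate 2 it shrank to -0.13 and still did not pass (adjusted p = 0.0889). Bysl, which overlaps Ccnd3, held 1535, 1521 and 1434 counts in Ctrl and 948, 938 and 926 in l-FA, lower in l-FA as was the Ccnd3 estimate. The pseudogene Ccnd3-ps held 127, 140 and 165 counts in Ctrl and 123, 128 and 111 in l-FA. The part of either in the values of Ccnd3 was not tested.

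Ccnd1 (ENSMUSG00000070348, chromosome 7, 144483668 to 144493662), which encodes cyclin D1, measured 15.7, 13.7 and 14.8 CPM in Ctrl and 14.5, 12.6 and 15.4 CPM in l-FA. The groups overlapped throughout. Its log2 fold change of -0.05 had an interval from -0.29 to 0.19 (adjusted p = 0.691, edgeR). The estimate turned to 0.03 with total counts alone and to 0.04 without l-FA replicate 2. Ccnd1 overlaps LTO1, which held 122, 255 and 302 counts in Ctrl and 275, 220 and 272 in l-FA, and its part in the value of Ccnd1 was not tested.

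Both kinases fell, although Cdk6 showed no change without the TMM factors (log2 fold change -0.00). Cdk4 (ENSMUSG00000006728, chromosome 10, 126899403 to 126903789) measured 557.3, 577.9 and 592.9 CPM in Ctrl and 522.2, 500.7 and 505.2 CPM in l-FA. No l-FA library reached the lowest Ctrl library. The mean fell from 576 ± 17.9 to 509.4 ± 11.3 CPM, 1.13-fold (log2 fold change -0.18, standard error 0.03, adjusted p = 0.00281, edgeR). With total counts alone the change of Cdk4 was -0.10 and still passed (adjusted p = 0.0387). Tspan31, which overlaps Cdk4, also held fewer counts in l-FA, 2093 to 2255 against 2536 to 2636 in Ctrl. The strand setting of the counting is unknown, and the part of Tspan31 reads in the value of Cdk4 was not tested.

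Cdk6 (ENSMUSG00000040274, chromosome 5, 3391485 to 3581008), a kinase whose amount is known to govern how fast resting HSCs enter the cycle, measured 592.5, 577.7 and 572.6 CPM in Ctrl and 551.9, 541 and 555.5 CPM in l-FA. The groups did not overlap on this scale, although the gap between the nearest libraries was small. The mean fell from 580.9 ± 10.3 to 549.5 ± 7.53 CPM, 1.06-fold (log2 fold change -0.08, standard error 0.022, adjusted p = 0.0205, edgeR). This call depended on the scaling, since the adjusted p was 0.956 with total counts alone, and Cdk6 passed in 6 of 14 alternatives.

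The pocket proteins moved in opposite directions. Rbl2 (ENSMUSG00000031666, chromosome 8, 91796685 to 91850472) encodes p130, the pocket protein that gathers with E2F4 and the MuvB core into the DREAM repressor of resting cells. It measured 108.8, 110.8 and 108.2 CPM in Ctrl and 151.5, 162.8 and 162.5 CPM in l-FA. The Ctrl libraries were nearly equal, and the lowest l-FA library stood far above them. The mean rose from 109.3 ± 1.35 to 158.9 ± 6.43 CPM, 1.45-fold (log2 fold change 0.54, standard error 0.037, adjusted p = 8.56e-05, edgeR). It passed in all 14 alternatives, between 0.53 and 0.62. Aktip, which overlaps Rbl2, held 494 to 583 counts in Ctrl and 591 to 800 in l-FA, and its part in the value of Rbl2 was not tested.

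Rb1 (ENSMUSG00000022105, chromosome 14, 73421113 to 73563262) encodes the retinoblastoma protein, the main target of cyclin D kinases. It measured 11.6, 10.5 and 10.8 CPM in Ctrl and 8.48, 8.68 and 8.71 CPM in l-FA, without overlap. The mean fell from 11.0 ± 0.595 to 8.62 ± 0.127 CPM, 1.27-fold (log2 fold change -0.35, standard error 0.078, adjusted p = 0.00965, edgeR). Rb1 rests on only 174 to 223 counts a library and overlaps Lpar6 and Rcbtb2, which hold more reads. Lpar6 held 1198, 1121 and 1050 counts in Ctrl and 980, 1044 and 1051 in l-FA. Rcbtb2 held 1554, 1540 and 1697 counts in Ctrl and 1671, 1651 and 1642 in l-FA. The part of either in the value of Rb1 was not tested. Rbl1, the third pocket protein gene, measured 133.2 ± 3.35 CPM in Ctrl and 142.5 ± 5.22 in l-FA and did not pass (log2 fold change 0.10, adjusted p = 0.0712, edgeR).

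**Figure D2:**
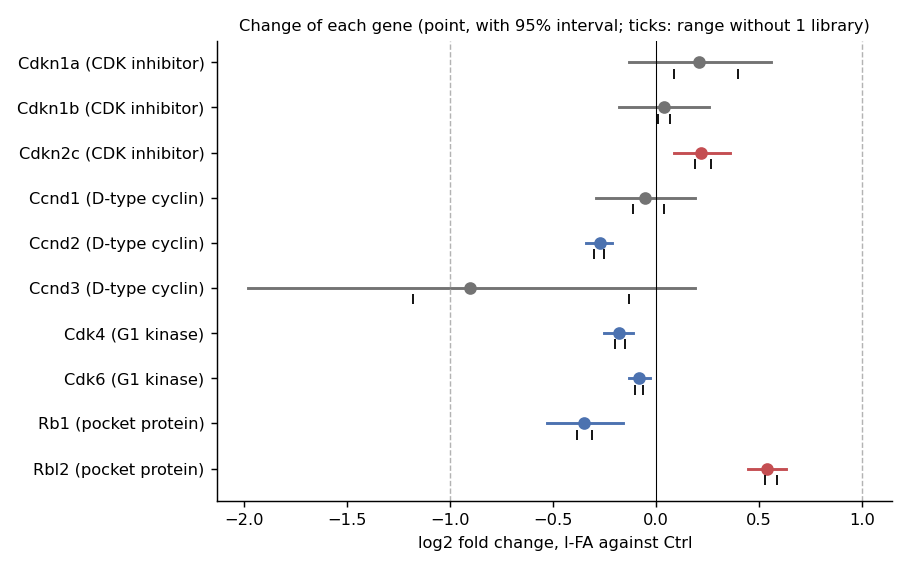
Log2 fold change of l-FA against Ctrl for each gene, with its 95% interval; black ticks span the values with each library left out in turn, and dashed lines mark 2-fold. Rbl2 at 0.54 and Cdkn2c at 0.22 lie right of 0 and Ccnd2, Cdk4, Cdk6 and Rb1 left of it, while Ccnd3 spans from -1.98 to 0.19; Cdk6 moves to -0.00 with total counts alone.

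By role, 1 of 3 inhibitors was higher and none lower, 1 of 3 D-type cyclins was lower and none higher, both kinases were lower with TMM, and the pocket proteins split evenly. Among all genes tested, 25.5% were higher and 25.0% lower, so counts this small do not set a role apart. All 3 estimates of the inhibitors were positive, with a median log2 fold change of 0.21, that of Cdkn1a. All 3 of the D-type cyclins were negative, with a median of -0.27, that of Ccnd2. The intervals of Cdkn1a, Cdkn1b, Ccnd1 and Ccnd3 reached across 0, however. The estimate of Ccnd1 turned positive with total counts alone and also, under TMM, without l-FA replicate 2.

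Compared per length, on the deposited FPKM scale, the kinases and cyclin D2 dominated the set. Mean levels in Ctrl were 87.7 FPKM for Cdk4, 33.0 for Cdk6, 28.5 for Ccnd2 and 12.5 for Cdkn2c, and the libraries of each lay apart from those of the next. Rbl2 (8.16), Cdkn1a (7.79) and Ccnd3 (5.05) followed and could not be ordered, because their libraries overlapped. Ccnd1 (2.55), Rb1 (1.57) and Cdkn1b (0.663) closed the order. In l-FA the order was the same, but Rbl2 (12.5) now lay clear of Cdkn1a (9.55), and Ccnd3 (2.87) overlapped Ccnd1 (2.60). The lengths behind the FPKM values exceeded the exon union of the GENCODE M21 annotation for all 10 genes, 1.052 to 1.965 times, most for Cdk4. For Cdk4 (6385 against 4387 bases) and Cdkn1b (7580 against 5113 bases) they exceeded even the listed span of the gene, so the FPKM levels of these genes, and the Cdk6 share below, rest on lengths that no single transcript of the listed gene could have. With exon-union lengths, chosen as an alternative after seeing this, Cdkn1a and Cdkn2c exchanged ranks 4 and 6 in Ctrl, Rbl2, Cdkn1a and Cdkn2c took ranks 4, 5 and 6 in l-FA, and the other genes kept theirs.

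**Figure D3:**
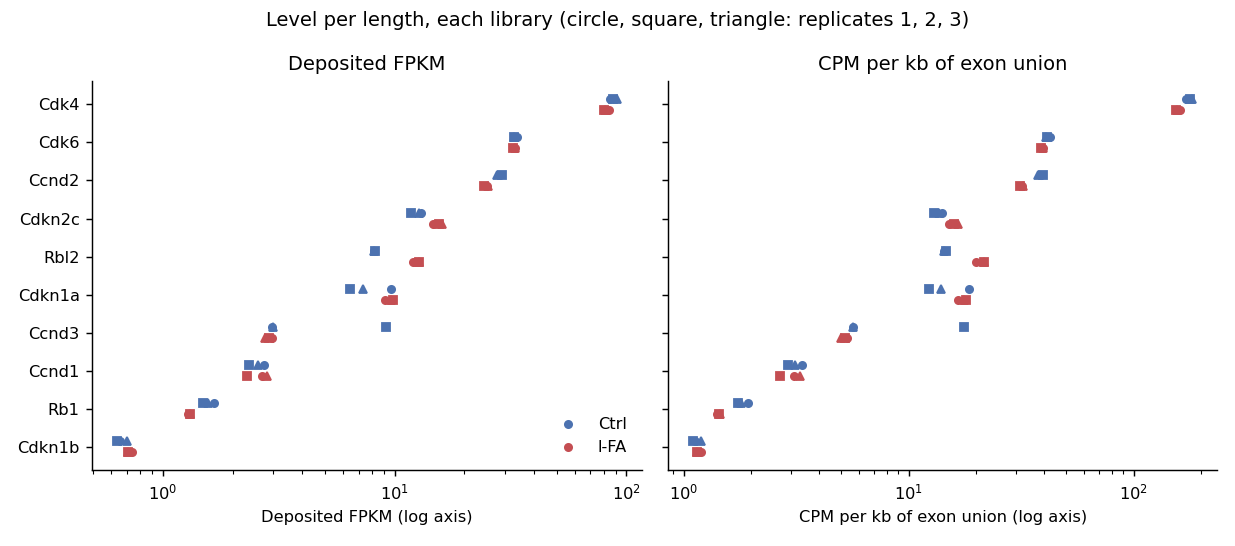
Level per length of each gene in every library, as deposited FPKM (left) and as CPM per kb of exon union (right), on log axes; blue is Ctrl and red is l-FA. On both scales Cdk4 is highest and Cdkn1b lowest (87.7 and 0.663 FPKM in Ctrl).

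Within each role the same FPKM values gave the makeup, as a description without a test. Ccnd2 made up 83.4%, 71.5% and 83.4% of the summed D-type cyclin level in Ctrl and 81.7%, 82.5% and 81.8% in l-FA. The low Ctrl value belonged to replicate 2, in which Ccnd3 made up 22.6%, so the makeup of the D-type cyclins was otherwise alike in both groups. Cdk6 made up 28.4%, 27.2% and 26.5% of Cdk4 plus Cdk6 in Ctrl and 28.3%, 28.7% and 29.1% in l-FA. Rbl2 made up 83.0%, 84.7% and 83.9% of Rb1 plus Rbl2 in Ctrl and 90.3%, 90.7% and 90.7% in l-FA, without overlap.

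The summed level of the 3 inhibitors divided by that of the 3 D-type cyclins was 0.680, 0.465 and 0.619 in Ctrl (mean 0.588 ± 0.111) and 0.800, 0.880 and 0.859 in l-FA (mean 0.846 ± 0.0416). Every l-FA library stood above every Ctrl library, and the lowest Ctrl value again belonged to replicate 2. Cdkn2c and Cdkn1a carried nearly all of the inhibitor sum and Ccnd2 most of the cyclin sum, so the ratio chiefly sets these 3 genes against each other.

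**Figure D4:**
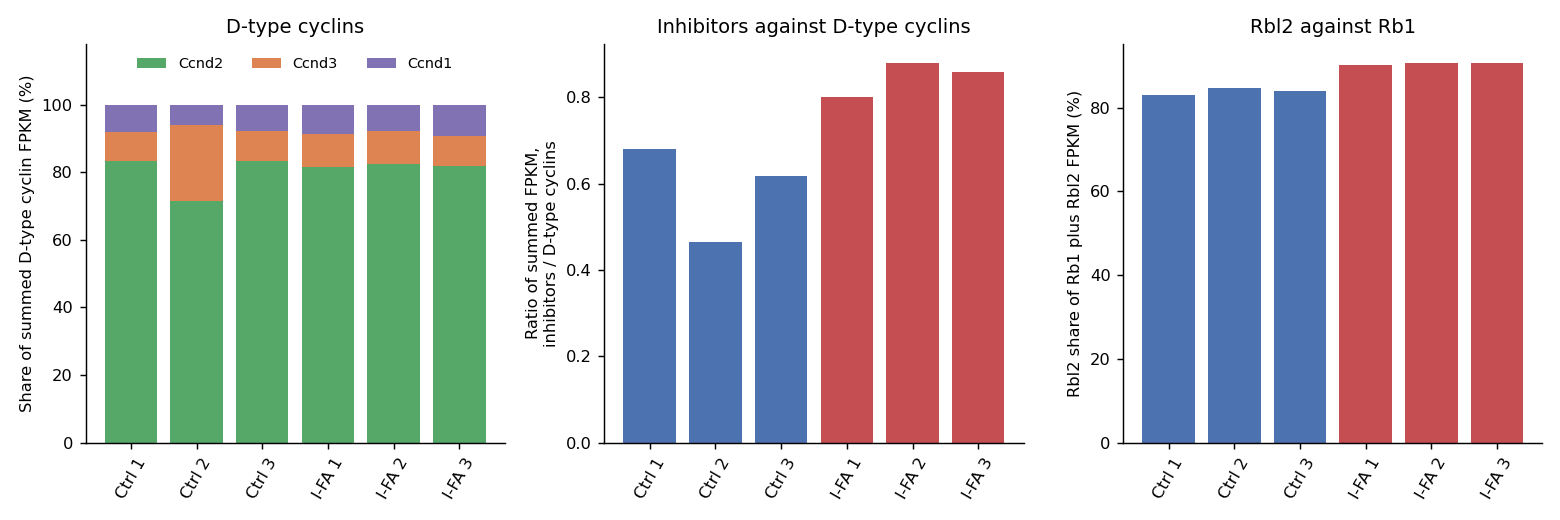
Makeup of the summed D-type cyclin FPKM in percent (left), ratio of summed inhibitor to summed D-type cyclin FPKM (middle) and Rbl2 share of Rb1 plus Rbl2 FPKM in percent (right), 1 bar per library, axes from 0. The ratio is 0.465 to 0.680 in Ctrl and 0.800 to 0.880 in l-FA, and the Rbl2 share 83.0% to 84.7% and 90.3% to 90.7%.

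The genes that act next to and after these 10 did not move as a block. In the cyclin E and A branch, 2 of 8 genes were higher and 4 lower: Cdk2, the partner of cyclin E, rose (0.28 on the log2 scale, adjusted p = 0.00336, edgeR), as did Skp2, which targets p27 for destruction (0.41), whereas the phosphatase gene Cdc25a (-0.47) and cyclin A2 gene Ccna2 (-0.35) fell. Ccne1 and Ccne2, the cyclin E genes, had log2 fold changes of -0.08 (interval -0.26 to 0.11) and -0.01 (interval -0.12 to 0.10). Among 10 E2F and DP factors, 4 were higher and 4 lower. E2f1, an activator, fell from 17.8 ± 1.69 to 10.1 ± 1.46 CPM, and E2f7, an atypical repressor, rose from 31.6 ± 0.605 to 46.5 ± 0.506 CPM. E2f4 and E2f5, the E2Fs that pocket proteins chiefly use to repress, both fell, by log2 fold changes of -0.53 and -0.88. Of 7 other RB family and MuvB genes, Lin52 (0.44) and Lin9 (0.30) were among 2 higher, and Mybl2 (-0.25), which replaces the pocket protein on MuvB in cycling cells, was among 2 lower. Rbl2 and its E2F partners in DREAM therefore did not share a direction.

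Of 8 CDK activators and other early cyclins, 2 were higher and 2 lower, with Ccng2, a cyclin linked to cell cycle arrest, at 0.62, Ccnc at 0.45 and Ccng1 at -0.23. Of 14 turnover and upstream regulators, 3 were higher and 5 lower. Gfi1, a repressor that restrains HSC proliferation, fell most (-1.96), Foxo1 fell (-0.62) and Mycn rose (0.69), while Myc, a known activator of Ccnd2 and Cdk4, measured 609.5 ± 65.1 CPM in Ctrl and 620.9 ± 10.7 in l-FA (log2 fold change 0.03, interval -0.14 to 0.20).

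Downstream, 1 of 20 S phase genes that E2F switches on was higher and 10 were lower, with a median of -0.10. Cdc45 (-0.37), Tyms (-0.31) and Rrm2 (-0.29) showed the largest falls. Of 18 G2 and mitosis genes, 4 were higher, among them Cenpe (0.36) and Cenpf (0.35), and 7 lower, among them Bub1 (-0.35), with a median of -0.09. Mki67, the gene of the proliferation marker Ki-67, fell from 251.5 ± 2.33 to 219.1 ± 4.25 CPM (log2 fold change -0.20, adjusted p = 0.0008, edgeR). Among 13 genes known from HSC quiescence, 6 were higher and 2 lower, with a median of 0.35. They included Egr1 (1.12) and Nr4a1 (0.87), along with Cdkn1c, but also Gfi1 in the opposite direction. These counts stand beside 25.5% higher and 25.0% lower among all genes, and the medians of the S phase and mitosis lists were small enough that a shift in scaling of 0.08 would take up most of them.

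**Figure D5:**
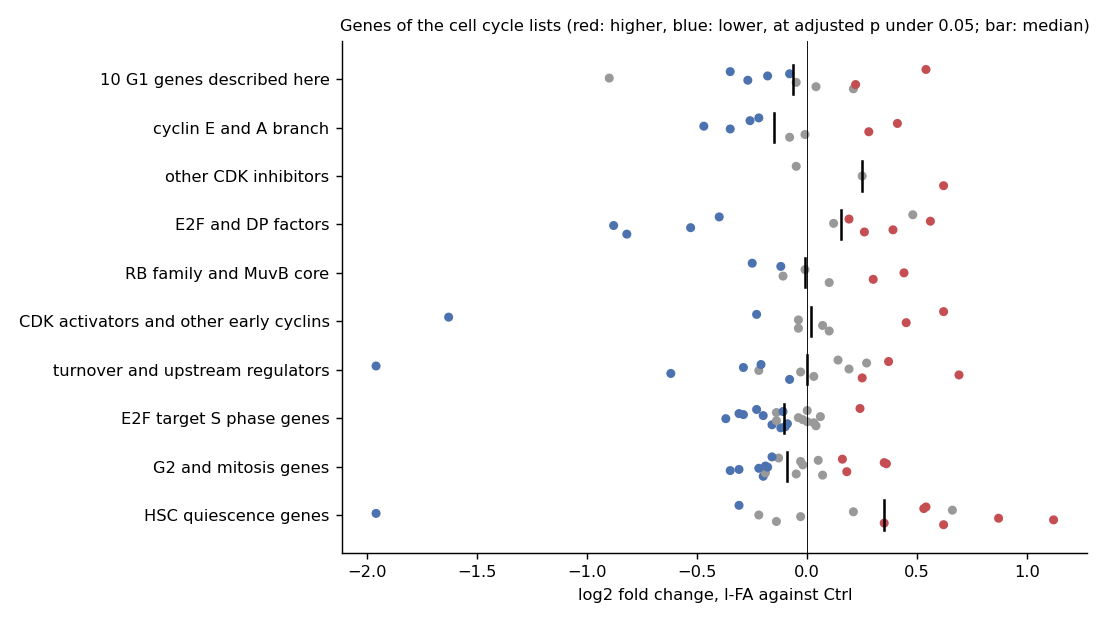
Log2 fold change of l-FA against Ctrl for the 10 genes and for each tested gene of 9 cell cycle lists; red points were higher and blue points lower at an adjusted p under 0.05 (edgeR), grey points did not pass, and bars are medians. The S phase list centres at -0.10 and the quiescence list at 0.35, with Gfi1 at -1.96 far to the left.

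Markers of cell type moved along with these values. The counts of markers below stand beside 25.5% higher and 25.0% lower among all genes tested. Of 10 HSC markers, 7 were higher in l-FA, among them Slamf1 (2.14 ± 0.566 to 7.97 ± 0.493 CPM), and 1 was lower. All 10 markers of granulocyte-monocyte progenitors and maturing neutrophils were lower, with a median log2 fold change of -1.74. They were Mpo, Elane, Prtn3, Ctsg, Ms4a3, Cebpe, Ltf, S100a8, S100a9 and Ngp. Their summed level was 22643 to 23300 CPM in Ctrl and 5897 to 6180 CPM in l-FA, and Elane alone went from 3211 ± 28.7 to 454.5 ± 5.21 CPM. Transcripts of the molecules gated against were abundant in both groups, with Cd34 at 1343 ± 18.4 and 1579 ± 38.2 CPM and Flt3, which encodes CD135, at 759.3 ± 3.43 and 1183 ± 19.8 CPM. Itgam, which encodes the myeloid marker CD11b, rose from 44.8 ± 3.61 to 63.6 ± 5.43 CPM. Ptprc, the gene of CD45 in all its isoforms, did not pass (306.8 ± 35.4 and 346.9 ± 65.0 CPM), and its counts do not separate the B220 isoform. Erythroid and megakaryocyte markers summed to 208.6 to 213.1 CPM in Ctrl and 296.9 to 302.1 in l-FA (4 of 8 higher, 1 lower), and lymphoid markers to 582.5 to 611.5 and 381.7 to 395.9 CPM (1 of 5 higher, 1 lower), most of it Nkg7. In such bulk libraries, fewer cells of a type and less RNA per cell cannot be told apart. The part of the marker shift in the values of Ccnd2, Cdk4, Cdk6, Rb1, Rbl2 and Cdkn2c was not tested. Its part in the fall of Gfi1, which is counted in both the upstream regulator and the quiescence list, was not tested either.

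Read as a balance, rises of Rbl2 and Cdkn2c and falls of Ccnd2 and Cdk4 lie toward the resting side of the textbook pathway. The fall of Cdk6 lies on that side too, but it passed in only 6 of 14 alternatives and was lost without any 1 l-FA library. The fall of Rb1 lies toward the other side. All were below 2-fold and concern RNA, whereas phosphorylation of the pocket proteins, cyclin protein and the share of cells in G0 are not measured by these libraries. Tested against no change, the share of these 10 genes that passed was near the share of all genes that did. In that count the list as a whole did not stand apart from the rest of the table. Against the 1.2-fold limit, 1 of the 10 passed, beside 4516 of all 16520 genes tested.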

How the data were processed

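RNA of sorted HSCs was amplified with a SMART-Seq kit and sequenced in 3 Ctrl and 3 l-FA libraries. The deposited table holds raw gene counts for each library and the FPKM that the authors computed from these counts. The labels' processing notes name HISAT2, SAMtools 1.3.1, StringTie, edgeR and the build GRCm39, while the study's methods name DESeq2. The annotation release and the strand setting are not given in the sources used here. Groups came from the labels.

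The test was run in edgeR 4.0.16 under R 4.3.3 (TMM, filterByExpr, glmQLFit, glmQLFTest, no covariate), with Benjamini-Hochberg adjustment over 16520 of 27198 genes. Standard errors are log2 fold changes divided by the square root of F, and intervals use the same fit. The code was tested on simulated data. Deposited FPKM served to compare levels between genes and to describe, without a test, shares and a ratio of summed levels in each library of both groups. Libraries of 1 group differed less (median chi-square 0.906 to 1.11) than libraries of different groups (8.21 to 8.83). Counts without molecular identifiers are not independent molecules.

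The 10 genes and all lists were chosen with earlier results of these data known. Besides the 10, each list names up to 3 genes of largest change among those passed at 1 CPM or more, plus a few fixed names. Cdkn2a and Ccna1 had no row in the table used here. Both groups carry replicate numbers 1 to 3, which no source ties together, and same-numbered deviations correlated at 0.0187, -0.0132 and -0.05. Alternatives were DESeq2 1.42.0, RLE, upper-quartile and total-count scaling, 2 other count filters, a replicate block, a 1.2-fold limit, each library left out, and other gene lengths.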

Additional observations from a re-analysis of the deposited data

How the results depend on the processing

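Of the 10 genes, 5 to 6 passed under every scaling, filter, tool and left-out library, and 1 against a 1.2-fold limit, where 4516 of all genes passed in place of 8336. With each library left out, 7459 to 7733 of all genes passed. Past 2-fold, 3335 genes passed with no count filter and 930 where each library had to hold 10 counts, against 1946. The replicate block gave 7405 genes and 5 of the 10, with Cdk6 lost (adjusted p = 0.0506). Cdk6 was also lost with upper-quartile scaling (0.0657), with total counts, against the 1.2-fold limit, without Ctrl replicate 1 (0.0638) and without any 1 l-FA library (0.0561 to 0.117), and the cause was not tested. Cdkn1a passed without Ctrl replicate 1 alone. No estimate of a gene that passed turned positive from negative or the reverse, though Cdk6 came to -0.00 with total counts. With exon-union lengths the Ccnd2 share in l-FA was 79.6%, the Cdk6 share 19.0% in Ctrl and 20.0% in l-FA, and the Rbl2 share 88.8% and 93.6%, by construction of the lengths, and the ratio of inhibitors to D-type cyclins stayed within its spread. Depth limits Cdkn1b and Rb1 most, with 93 to 223 counts a library.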
